A study of Bos taurus with 48 samples.

Results

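The 300 genes described here had lower read counts in the mammary parenchyma of calves offered milk replacer without limit than in the parenchyma of calves on a restricted or a control ration. They were chosen on CPM, a gene's counts per M (mega) of the library's summed gene counts. A gene was eligible where the highest of the 6 unlimited parenchyma libraries lay below the lowest of the 6 restricted and 3 control parenchyma libraries. Its restricted parenchyma mean also had to be 2 CPM or more and at least 1.3 times the unlimited mean. A limit on the level in restricted fat pad, at 8 times the restricted parenchyma mean plus 0.1 CPM, removed genes that fat pad holds in large excess, and 1 identifier was left out by the rule. Of 27607 genes in the files, 341 met these conditions, and the 300 with the highest ratio of restricted to unlimited mean were taken.

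Liver, mammary parenchyma and mammary fat pad of dairy calves were sequenced as total RNA depleted of ribosomal RNA. The control diet was a standard ration set from dairy cattle requirements, the restricted diet gave less milk replacer per day, and the unlimited diet was milk replacer offered freely in 3 meals a day of 30 minutes each. Restricted and unlimited diets had 6 libraries in each tissue, and the control diet had 4 in liver, 4 labelled fat pad and 3 in parenchyma. The labels used here give no age, sex or weight of the calves and do not say that the libraries of a group come from separate calves, so p-values here measure only how these samples spread, which may be technical.

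Parenchyma is the growing epithelial part of the calf's mammary gland, with ducts, myoepithelium and the connective tissue around them. The fat pad is the adipose bed into which the ducts extend, and it also holds vessels, fibroblasts and immune cells. The liver handles the nutrients that arrive from the gut and is a source of circulating growth factors. Milk supply before weaning is known to affect growth of the parenchyma in calves. In bulk tissue, fewer cells of a type and less RNA per cell cannot be told apart.

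The files pair the Ensembl cattle identifiers with no gene names, so a role cannot be given for any of these genes, and the tissue labels could not be checked against marker genes. Libraries were instead placed on a scale over 17444 genes, the 300 left out, on which 0 is the mean of the other restricted and unlimited parenchyma libraries and 1 that of fat pad. Unlimited parenchyma lay between -0.02 and 0.01 on this scale, restricted parenchyma between -0.02 and 0.07, and control parenchyma between -0.01 and 0.05. Of the libraries labelled fat pad control, numbers 1 and 2 lay at -0.03 and 0.03, number 21 at 0.12 and number 18 at 0.54, whereas restricted and unlimited fat pad libraries began at 0.81. They are therefore given one by one and enter no test. Gene counts ran from 5.59 to 24.2 M per library.

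The 300 genes together made up 1.34% to 1.56% of all gene counts in unlimited parenchyma, 2.01% to 2.52% in restricted parenchyma and 2.30% to 2.57% in control parenchyma. Summed over the genes, this was 14872 ± 804 CPM (SD, n = 6) under unlimited feeding, 22701 ± 2082 CPM (SD, n = 6) under restriction and 24055 ± 1479 CPM (SD, n = 3) on the control diet. These values and those of the following paragraphs on parenchyma restate the choice of the genes and carry no test. On sums of gene counts the restricted libraries spread more widely than the unlimited ones, from 20099 to 25188 CPM against 13441 to 15574 CPM.

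**Figure D1:**
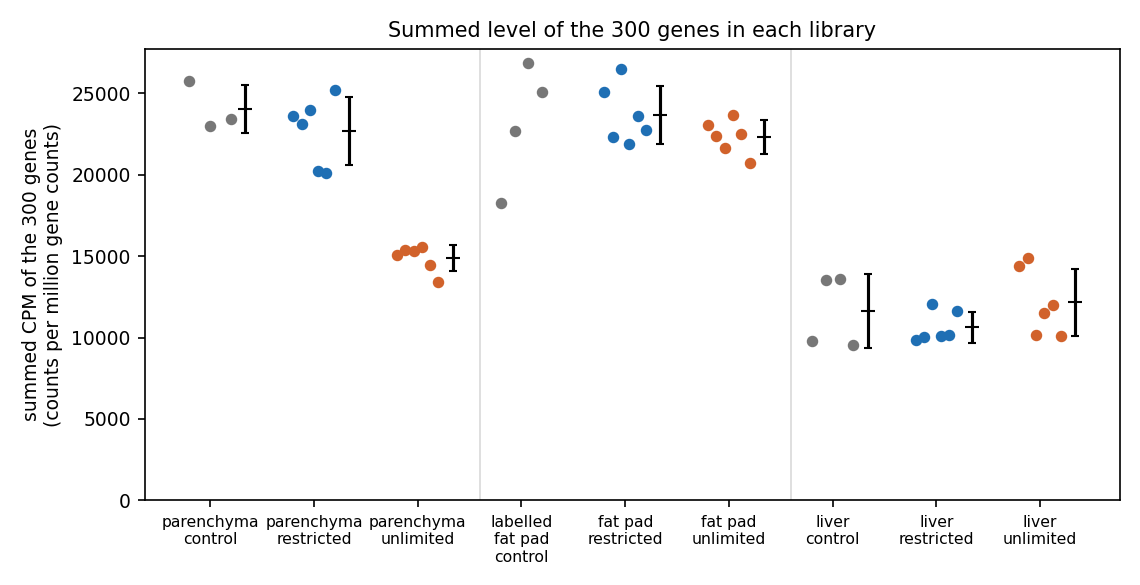
Summed CPM of the 300 genes (vertical axis) in each library of the 9 groups of tissue and diet (horizontal axis); each point is a library, and the bars give the mean and SD of a group, except for the 4 libraries labelled fat pad control. Unlimited parenchyma, at 13441 to 15574 CPM, lies below both other parenchyma groups, while restricted and unlimited fat pad overlap and no liver library exceeds 14891 CPM.

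Most of the 300 differences were modest. The ratio of restricted to unlimited mean ran from 1.34 to 6.40 with a median of 1.53. It was 2 or more for 30 genes and 1.5 or more for 173. The last gene inside the limit, ENSBTAG00000000176, had means of 125 CPM under restriction and 93.2 CPM under unlimited feeding, and the first outside, ENSBTAG00000016621, had 52.0 and 38.7 CPM. The lowest restricted or control library exceeded the highest unlimited library by a median factor of 1.07 and at most 1.44, so the groups were separated by narrow margins.

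CPM is not scaled for gene length, so levels of different genes are not ranked here. The median gene had a mean of 40.7 CPM in restricted, 43.8 CPM in control and 27.1 CPM in unlimited parenchyma. A restricted mean of 10 CPM or more was found for 267 of the 300 genes (89%), against 72.9% of the 12605 other genes with a restricted mean of at least 2 CPM. At least 1 CPM was counted in every one of the 47 libraries, liver included, for 276 of the 300 genes (92%), against 81.0% of the other genes. Most of the 300 genes, like most of the other genes, were thus counted in all 3 tissues. The rule read the restricted libraries and asked for groups without overlap, so no excess over other genes is read from these shares.

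**Figure D2:**
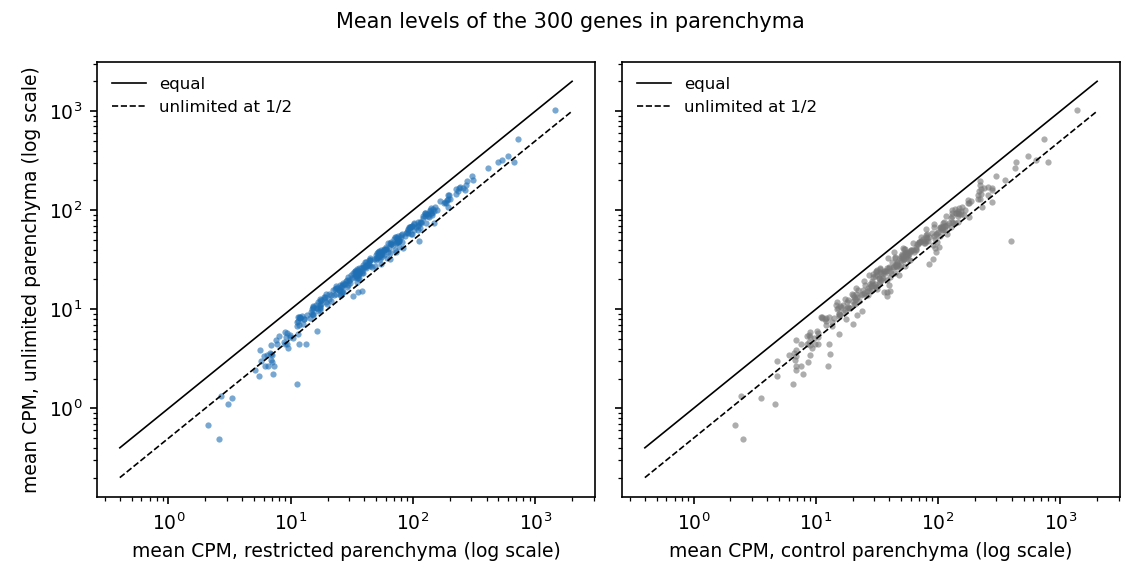
Mean CPM of each of the 300 genes in unlimited parenchyma (vertical axis, log scale) against its mean in restricted (left) and control (right) parenchyma (horizontal axis, log scale); each point is a gene. All points lie below the line of equal levels in both panels, which the choice of genes requires, and 30 of them lie on or below the dashed line of a 2-fold difference against restriction.

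The separation depended on how library sizes were scaled. On sums of gene counts, the median of all genes was itself lower in unlimited than in restricted parenchyma, by -0.15 on the log2 scale, and by -0.21 against control. The scaling factors of the trimmed mean of M values (TMM) were 0.94 to 1.01 in unlimited, 1.00 to 1.18 in restricted and 1.09 to 1.18 in control parenchyma. With TMM the median of all genes stood at 0.01 against restriction, and that of the 300 genes moved from -0.60 to -0.44. The distance between them was -0.45 on both scales, which scaling whole libraries leaves nearly unchanged by construction. The spread of libraries also depended on the scaling. On sums of gene counts the library medians of the 300 genes' log2 levels had an SD of 0.14 in restricted and 0.08 in unlimited parenchyma. With TMM the SD was 0.06 and 0.05. Only 95 genes in all met the rule on TMM-scaled library sizes, 94 of them among the 300. Every unlimited library still lay below every restricted and control library for 117 of the 300 (39%). The same held for 0.04% of the 12605 other genes with a restricted mean of at least 2 CPM. The rule took genes without overlap, so nothing is read from this difference.

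In edgeR's quasi-likelihood fit of unlimited against restricted parenchyma, with TMM, all 300 genes had a log2 fold change below 0, with a median of -0.47 and a middle range of -0.59 to -0.38, against a median of -0.02 over the 14117 genes tested. At a Benjamini-Hochberg adjusted p under 0.05, 242 of the 300 (80.7%) were called lower, beside 4.73% of all genes tested, and none was called higher, beside 7.88%. Because the rule read the same libraries, nothing is read from these counts. Every unlimited library lay below every restricted and control library for 2.7% of the genes tested. With the library's position between parenchyma and fat pad as a covariate, no gene of the 300 was called and 3 of all genes were, while the median log2 fold change of the 300 was -0.41.

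Against control parenchyma, the same unlimited libraries gave a median log2 fold change of -0.49 for the 300 genes, beside -0.01 over all genes tested. Of the 300, 149 were called lower, beside 5.02% of all genes, and none higher, beside 7.42%. The count rests on single control libraries, since it was 65 without control 18 and 86 without control 19. Both comparisons share the unlimited libraries, and 133 genes were called in both, 109 against restriction only, 16 against control only and 42 in neither. The rule used both comparisons, and no share of all genes is set beside this split, so nothing is read from it. The ratio of control to unlimited mean had a median of 1.62 and ran from 1.11 to 8.15.

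Restricted and control parenchyma were close to each other for most of the genes. The median log2 fold change of restricted against control was -0.01, with a middle range of -0.13 to 0.11, where that of all genes was -0.21 to 0.27. None of the 300 was called by edgeR, beside 0.329% of all genes tested, DESeq2 called 2, and 21 (7%) had an unadjusted p under 0.05, beside 14.5% of all genes. Leaving out control 19 or restricted 8 gave 1 call each. The control mean was above the restricted mean for 195 genes (65%), beside 58.9% of the other genes with a restricted mean of at least 2 CPM. Every control library lay above every restricted library for 10 and below for 2, beside 4.74% and 2.92% of all genes. The rule took the lowest value of both groups and ranked by the restricted mean, so these counts describe the chosen genes and test nothing, and a missing call does not show equal levels.

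The gene with the highest ratio, ENSBTAG00000001735, was read at 3.69 to 16.7 CPM in restricted parenchyma with a median of 12.2, and at 0.361 to 3.16 CPM in unlimited parenchyma with a median of 1.49. The control libraries 18, 19 and 21 had 9.23, 3.50 and 6.73 CPM. The highest unlimited library thus came close to the lowest control and restricted libraries. The log2 fold change was -2.56 ± 0.45 (SE) against restriction and -1.67 ± 0.50 (SE) against control. Fat pad held little of it, at 0.554 to 2.15 CPM under restriction and 0.452 to 1.63 CPM under unlimited feeding, and liver reached at most 1.08 CPM. The libraries labelled fat pad control held 3.24, 5.44, 3.42 and 3.31 CPM, above every restricted and unlimited fat pad library.

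ENSBTAG00000012808 had 5.58 to 19.5 CPM in restricted parenchyma with a median of 13.5, and 2.74 to 5.20 CPM in unlimited parenchyma with a median of 4.68. The controls 18, 19 and 21 had 9.82, 8.78 and 10.9 CPM, within the restricted range and above every unlimited library. The log2 fold change was -1.42 ± 0.25 (SE) against restriction and -0.94 ± 0.22 (SE) against control. This gene was far more abundant in liver, with 99.3 to 153 CPM over the 16 liver libraries, and there the 3 diets overlapped.

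**Figure D3:**
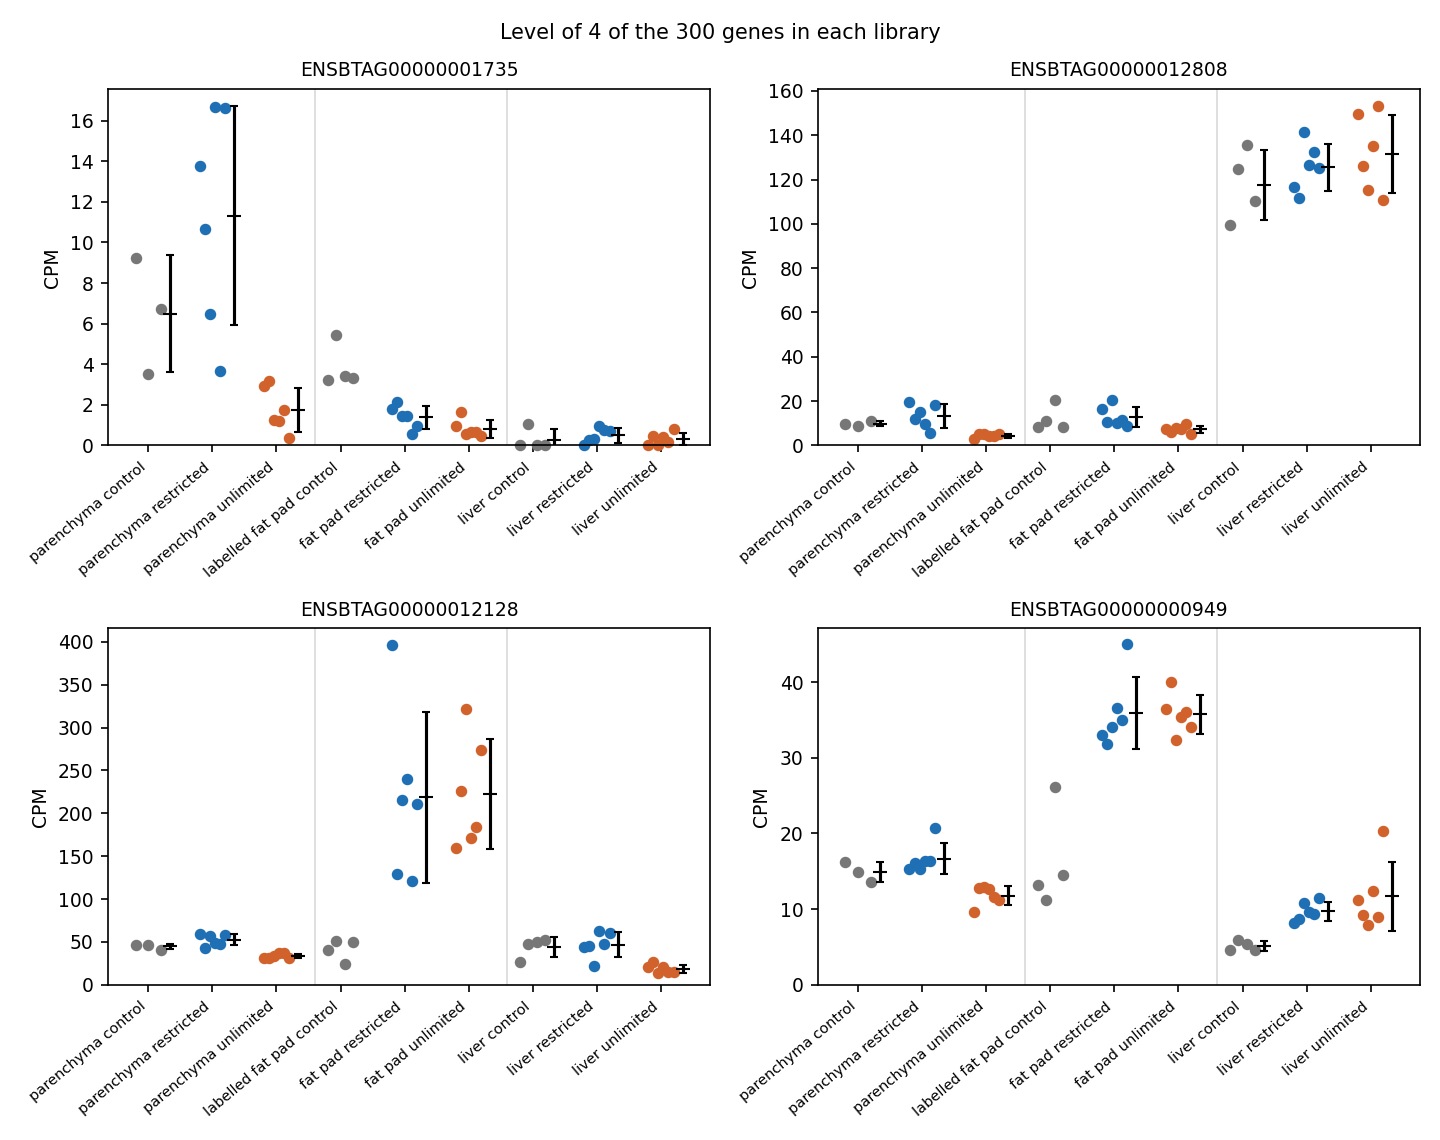
CPM (vertical axes) of 4 of the 300 genes in each library of the 9 groups (horizontal axes); points are libraries and bars give the mean and SD of a group, except for the libraries labelled fat pad control. ENSBTAG00000001735 reaches its highest values in restricted parenchyma and ENSBTAG00000012808 in liver, ENSBTAG00000012128 is lower in unlimited than in control and restricted liver apart from an overlap in restricted liver at 22.0 CPM, and ENSBTAG00000000949 is lower in control liver than in either other diet.

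In fat pad the rule read only the restricted mean, as an upper limit that removed 1 gene, and no diet contrast, so the unlimited and restricted groups there were compared by a test. These libraries carry the sample numbers of the parenchyma libraries that chose the genes, as do those of restricted and unlimited liver. If the numbers mark the same calves, the comparisons are not independent of the choice. The summed level was 22346 ± 1044 CPM (SD, n = 6) in unlimited and 23684 ± 1774 CPM (SD, n = 6) under restriction, and the ranges of 20738 to 23680 and 21868 to 26474 CPM overlapped. Of the 298 genes tested, 0 were called by edgeR or by DESeq2, beside 0% of all 15203 genes tested. The median log2 fold change was -0.08 with a middle range of -0.19 to 0.04, beside a median of 0.00 over all genes. A value below 0 was found for 200 of the 298 (67.1%), beside 50.1% of all genes, and 32 (10.7%) had an unadjusted p under 0.05, of which 31 were below 0, beside 8.66% of all genes.

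No gene of the 300 had every unlimited fat pad library below every restricted one, beside 0.263% of all genes tested. The lowest p belonged to ENSBTAG00000012808, with 8.74 to 20.5 CPM and a median of 11.1 under restriction and 5.20 to 9.69 CPM with a median of 7.38 under unlimited feeding. The groups overlapped in a narrow range, and the log2 fold change was -0.82 ± 0.22 (SE), with an edgeR adjusted p of 0.541 that ran from 0.177 to 0.882 over the alternatives. ENSBTAG00000010439 followed, with 42.3 to 89.2 CPM and a median of 50.7 under restriction and 33.7 to 44.0 CPM with a median of 37.7 under unlimited feeding. Its log2 fold change was -0.53 ± 0.15 (SE), with an edgeR adjusted p of 0.541 and a range of 0.310 to 0.882 over the alternatives.

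Only ENSBTAG00000055062 had every unlimited fat pad library above every restricted one, where 0.0987% of all genes tested did so. It was read at 156 to 176 CPM with a median of 172 under restriction and at 178 to 199 CPM with a median of 188 under unlimited feeding. The difference was small, at 0.18 ± 0.07 (SE) on the log2 scale, and its edgeR adjusted p was 0.541, between 0.498 and 0.882 over the alternatives. In parenchyma the same gene had 179 to 209 CPM under restriction and 123 to 141 CPM under unlimited feeding. On sums of gene counts its unlimited parenchyma thus lay below all 12 of these fat pad libraries. On TMM-scaled library sizes they overlapped. In the edgeR fit of parenchyma against fat pad over the 2 diets, the gene was higher in parenchyma by 0.15 ± 0.05 (SE), with an adjusted p of 0.0062.

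Side by side, the log2 fold changes of unlimited against restricted feeding had a median of -0.47 in parenchyma and -0.08 in fat pad. Across the 298 genes with a value in both, Pearson's r was 0.43 and Spearman's rho 0.23, and over all 13704 genes they were 0.36 and 0.31. Genes are not independent replicates, and the values come from the same sequencing pool, so these are descriptions. The difference between the tissues was not tested, because the parenchyma values chose the genes.

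**Figure D4:**
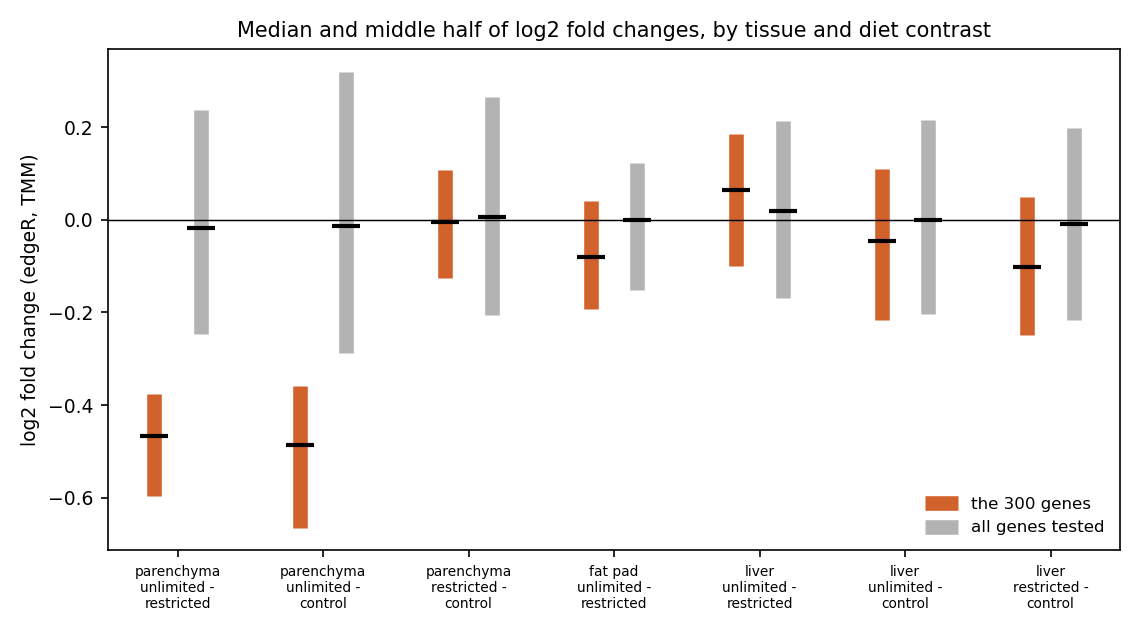
Median (black marks) and middle range from the 25th to the 75th percentile (bars) of the log2 fold changes of the 300 genes and of all genes tested, for 7 contrasts of diets in parenchyma, fat pad and liver. The 300 genes stand below 0 in the 2 contrasts that chose them, at -0.47 and -0.49, and their medians in the other contrasts lie between -0.10 and 0.06.

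In liver the genes had lower levels than in restricted parenchyma and did not follow the parenchyma pattern. How much lower depended on the scaling. Against restricted parenchyma, the library medians of their log2 levels averaged -1.17 in restricted liver on sums of gene counts and -0.56 with TMM. With TMM they averaged -0.55 in unlimited liver, where unlimited parenchyma had -0.44. The summed level in liver was 10639 ± 947 CPM (SD, n = 6) under restriction, 12171 ± 2049 CPM (SD, n = 6) under unlimited feeding and 11632 ± 2258 CPM (SD, n = 4) on the control diet, and all 3 ranges overlapped. The unlimited libraries 3 and 6 stood apart with 14372 and 14891 CPM, where the other 4 had 10100 to 11989 CPM. Their TMM factors were 0.93 and 0.94, where those of the other 4 were 0.73 to 0.80. On sums of gene counts 46 of the 300 genes had a lower unlimited than restricted mean, and on TMM-scaled library sizes 130 had. Of the other genes, 24.0% had a lower unlimited mean on sums of gene counts and 49.2% with TMM, so the count of genes in each direction depended on the scaling, and more of the 300 genes were higher than lower on both scales.

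Of the 291 genes tested in unlimited against restricted liver, 1 was called, lower, beside 0.0143% of all 14030 genes, and 31 (10.7%) had an unadjusted p under 0.05, 14 below 0 and 17 above, beside 14.1% of all genes. The median log2 fold change was 0.06, beside 0.02 over all genes, and 37.8% of the genes lay below 0, beside 47.0% of all genes. Without the unlimited libraries 3 and 6 the median was -0.04 and no gene was called. DESeq2 called 2 genes, with no share of all genes set beside them here. For unlimited against control liver the median over 294 genes was -0.05, with 1 gene called lower, beside 0.0709% of all genes called lower and 0.411% called higher (0.482% together). For restricted against control liver it was -0.10 over 293 genes, with 1 gene called higher, beside 0.611% of all genes called higher and 0.239% called lower (0.85% together). These 3 comparisons share libraries in pairs.

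The gene called in liver was ENSBTAG00000012128, with 22.0 to 62.6 CPM and a median of 46.3 under restriction and 13.5 to 26.0 CPM with a median of 17.7 under unlimited feeding. The liver controls 1, 2, 18 and 21 had 26.3, 47.6, 50.4 and 52.2 CPM. On sums of gene counts unlimited liver lay below all controls, though only narrowly below control 1. On that scale unlimited liver overlapped restriction only through the restricted library 8, at 22.0 CPM. The gene fell by 1.55 ± 0.22 (SE) on the log2 scale against restriction, with an edgeR adjusted p of 0.033, and by 1.41 ± 0.21 (SE) against control, with an adjusted p of 0.0109.

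Leaving out 1 library of restricted 4, 5, 10, 13 or 16 or of unlimited 3, 7 or 15 ended the call of ENSBTAG00000012128 against restriction, with edgeR adjusted p-values of 0.119, 0.117, 0.0917, 0.140, 0.0627, 0.0933, 0.121 and 0.136 in that order. Its log2 fold change stayed between -1.71 and -1.43 over all alternatives. Against control the call held in each alternative run, with adjusted p-values from 1.77e-06 to 0.0374. In restricted and unlimited fat pad the same gene was at 121 to 397 and 160 to 321 CPM, with wide overlap, and the libraries labelled fat pad control had 40.2, 51.5, 24.2 and 49.7 CPM. In parenchyma it had 43.1 to 59.3 CPM under restriction, 41.0 to 46.9 CPM on the control diet and 30.9 to 37.2 CPM under unlimited feeding.

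ENSBTAG00000037640 had the second lowest p of the 300 genes below 0 in unlimited against restricted liver, with 20.7 to 69.4 CPM and a median of 50.7 against 10.5 to 29.5 CPM and a median of 18.7. The groups overlapped, and the log2 fold change was -1.48 ± 0.30 (SE), with an edgeR adjusted p of 0.0758 that ran from 0.000195 to 0.205 over the alternatives. Liver controls had 23.1, 33.3, 39.0 and 32.5 CPM, between the restricted and unlimited medians. Unlike ENSBTAG00000012128 this gene was more abundant in parenchyma than in fat pad, with 74.6 to 103 CPM in restricted parenchyma and 10.6 to 30.2 CPM in restricted fat pad.

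ENSBTAG00000000949 was called in restricted against control liver. The controls 1, 2, 18 and 21 had 4.65, 5.96, 5.36 and 4.61 CPM, all below the restricted libraries, which had 8.12 to 11.5 CPM with a median of 9.50. It rose by 0.96 ± 0.17 (SE) on the log2 scale, with an edgeR adjusted p of 0.0234, and the range over the alternatives was 3.77e-05 to 0.0651. The call was lost without control 1, 2 or 18 or restricted 13 or 16, at adjusted p-values of 0.0651, 0.0527, 0.0557, 0.0538 and 0.0573. Unlimited liver had 7.95 to 20.3 CPM, also above all controls, with a log2 fold change of 1.09 ± 0.30 (SE) and an edgeR adjusted p of 0.175 that ran from 0.0403 to 0.392 over the alternatives.

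1 gene, ENSBTAG00000000727, was chosen here after its values were seen. On sums of gene counts, its restricted and unlimited groups were apart without overlap, in opposite directions in parenchyma and liver. It had 26.9 to 46.9 CPM in restricted and 22.2 to 25.9 CPM in unlimited parenchyma, but 21.8 to 35.4 CPM in restricted and 35.8 to 47.0 CPM in unlimited liver. On TMM-scaled library sizes these groups overlapped in each tissue. In liver the log2 fold change of unlimited against restricted was 0.36 ± 0.12 (SE), with an edgeR adjusted p of 0.204. For scale, 0.841% of all genes tested in liver had every unlimited library above every restricted one.

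Whether the fat pad and liver changes of unlimited against restricted feeding differed was tested by an interaction, since the rule used no diet contrast of either tissue and, of these 4 groups, only the restricted fat pad mean, as an upper limit. The sample numbers shared with parenchyma limit this test as well. No gene of the 300 was called by edgeR, beside 0% of the 16228 genes tested. An unadjusted p under 0.05 was found for 38 (12.7%), beside 13.1% of all genes. DESeq2 called 4, with no share of all genes set beside them here, so nothing is read from that count. The lowest p was that of ENSBTAG00000012128, with a change higher by 1.64 ± 0.36 (SE) on the log2 scale in fat pad than in liver and an edgeR adjusted p of 0.102, between 0.00741 and 0.152 over the alternatives.

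Some of the 300 genes had a higher level in parenchyma and others in fat pad. In the fit of parenchyma against fat pad, averaged over restricted and unlimited feeding, 74 had a call towards parenchyma and 119 a call towards fat pad, beside 31.8% and 34.5% of all genes tested (66.2% in both directions), and the median log2 difference was -0.10. Against liver, 180 were called higher in parenchyma and 60 higher in liver, beside 38.7% and 36.9%, with a median of 0.34. Since the rule fixed low unlimited parenchyma values, these counts are descriptions. The lowest p-values against fat pad in the 2 directions were those of ENSBTAG00000009065, 2.35 ± 0.08 (SE) higher in parenchyma on the log2 scale, and ENSBTAG00000050189, at -2.35 ± 0.10 (SE). Against liver they were those of ENSBTAG00000013588, at 3.08 ± 0.11 (SE), and ENSBTAG00000012808, at -4.50 ± 0.14 (SE).

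The genes were also split by the tissue that held more of them, as a description, since the rule chose them on the parenchyma difference and its minimum size. The median log2 fold change of unlimited against restricted parenchyma was -0.46 for the 119 genes higher in fat pad, -0.49 for the 74 higher in parenchyma and -0.47 for the 107 with no call. By liver it was -0.47 for the 60 genes higher there, -0.47 for the 180 higher in parenchyma and -0.44 for the 60 with no call. In the same 3 fat pad classes the fat pad medians were -0.06, -0.08 and -0.11.

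**Figure D5:**
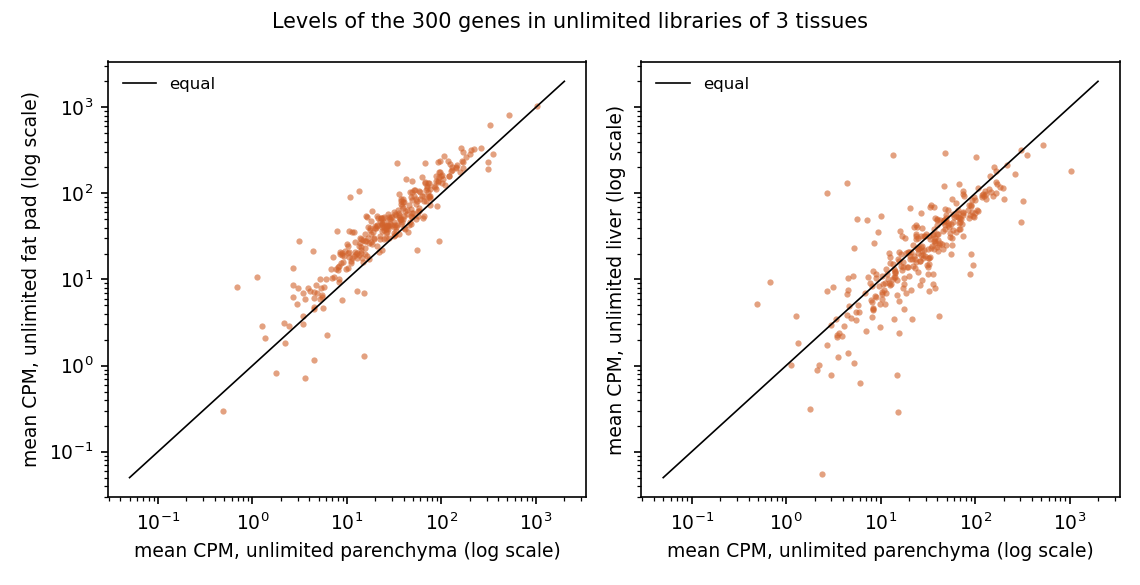
Mean CPM of the 300 genes in unlimited fat pad (left) and unlimited liver (right), on vertical log axes, against the mean in unlimited parenchyma (horizontal log axes); each point is a gene. On sums of gene counts 267 of the 300 genes lie above the line of equal levels for fat pad, and on TMM-scaled library sizes 222 do.

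The rule required low unlimited parenchyma values, so the fat pad levels set beside them here are a description, and no excess over other genes is read from them. On sums of gene counts the unlimited fat pad mean was above the unlimited parenchyma mean for 267 genes (89%), beside 67.4% of the other genes, and with TMM for 222 (74%), beside 46.8%. Every unlimited fat pad library lay above every unlimited parenchyma library for 203 genes (67.7%, beside 34.6%), and with TMM for 107 (35.7%, beside 17.2%).

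The 4 libraries labelled fat pad control were not read by the rule, but the unlimited parenchyma libraries set beside them here were, and the rule held those low, so nothing is read from the counts. Library 1 held 18291 CPM of the 300 genes, library 2 held 22710, library 18 held 26838 and library 21 held 25081, all above the 15574 CPM of the highest unlimited parenchyma library. Gene by gene, they lay above every unlimited parenchyma library for 194, 280, 228 and 287 of the 300 genes, beside 24.6%, 35.4%, 48.7% and 39.8% of the other genes. With TMM these counts were 166, 243, 201 and 266, beside 18.5%, 24.0%, 34.5% and 28.8% of the other genes. Library 1 was the lowest of the 4 in the sum and had 5.87 M gene counts, the fewest of them. The titles of libraries 1 and 2 carry the abbreviation used for parenchyma, and their tissue labels were taken as given.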

How the data were processed

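The authors deposited 1 table of read counts per sample, with 27607 cattle genes by Ensembl identifier and 5 summary entries. STAR 2.7.8, HTSeq 1.99.2, FastQC, DESeq2 and the genome build ARS-UCD1.2 are named per the submitters' processing notes, and no source used here gives the counting's strand and multi-read settings, so overlapping, antisense and near-identical genes are uncertain. The labels name 48 samples in 9 groups of tissue and diet. Counts of 47 entered the work; parenchyma control 2 was not analysed here. Groups came from the tissue and diet labels.

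From the counts, the summary entries were left out; they hold reads outside genes, and 21.7% to 46.4% of placed reads were assigned to genes. CPM is a count per M of the library's summed gene counts, computed from the deposited counts. The 300 genes were found on CPM by the rule given above. Comparisons used edgeR 4.0.16 in R 4.3.3 on raw counts with TMM factors and the robust quasi-likelihood test, after filterByExpr at a minimum count of 10 and a total of 15, on the groups compared alone, with Benjamini-Hochberg adjustment over all genes tested and a threshold of 0.05. SE is the standard error of a log2 fold change. The scripts were first tested on simulated data. The scale of positions projects log2 CPM (prior count 2) on the difference between the fat pad and parenchyma means, a library itself left out. Alternatives were DESeq2 1.42.0, size factors by relative log expression (RLE), no filter, 2 covariates, a replicate block, each library left out, and changes of the rule. The fat pad and liver interaction, and leaving out liver unlimited 3 and 6 together, were added after seeing the data, as was the replicate block of that interaction.

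The genes, comparisons and lists were chosen with earlier results of these data known. Lists of pathway and marker genes had been set up by symbol, and could not be applied, since a RefSeq table of another assembly matched 0 of the identifiers. Identifiers named are the 2 genes of highest ratio with a restricted mean of 10 CPM or more for parenchyma and at most 2 in each direction by lowest p for other comparisons. The number of libraries per group and their depth limit the precision.

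Same-numbered libraries of different tissues were checked for pairing by the correlation of their deviations from the group means. It was over 0.1 in 7 of 12 pairs of parenchyma and fat pad. It was so in 4 of 12 of parenchyma and liver and in 3 of 12 of fat pad and liver. Among libraries of the same diet, the same number gave the highest correlation in 8, 8 and 7 of 12 in that order. The numbers may thus mark samples of the same calf, which the labels do not say. The main fits left the samples unpaired, and a replicate block was run for the comparisons between tissues.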

Additional observations from a re-analysis of the deposited data

Results flagged for a closer look

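In 4 of 90 groups of named genes and 1 of 37 groups of library measures, a single library lay far from the others of its group relative to the group's range, where chance gives about 1 in 20. ENSBTAG00000000949 had 20.3 CPM in liver unlimited 11, where the other 5 had 7.95 to 12.4 CPM. ENSBTAG00000016881 had 22.8 CPM in liver restricted 8, where the other 5 had 6.03 to 12.0 CPM. ENSBTAG00000018052 had 214 CPM in parenchyma unlimited 11, where the other 5 had 306 to 353 CPM. ENSBTAG00000004240 had 289 CPM in the library labelled fat pad control 18, where the other 3 had 87.0 to 104 CPM, and the restricted fat pad libraries had 208 to 278 CPM. Parenchyma restricted 5 had 17.2 M gene counts, where the other 5 had 9.70 to 11.8 M.

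On sums of gene counts, every unlimited library lay below every restricted one in parenchyma and above in liver for 1 of the 300 genes, ENSBTAG00000000727. For 1, ENSBTAG00000055062, the same held with fat pad in place of liver. On TMM-scaled library sizes the groups of ENSBTAG00000000727 overlapped in parenchyma and in liver. The difference between tissues was not tested for either, since the parenchyma values chose the genes.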

How the results depend on the processing

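Changing the rule moved the number of genes that met it from 341 to 95 with TMM-scaled library sizes, 173 with a ratio of at least 1.5, 342 with no fat pad limit and 513 with no control libraries, and to between 321 and 550 with 1 parenchyma library left out; without restricted 13 it was 550, and 207 of the 300 genes were among its top 300. In unlimited against restricted parenchyma, the 242 calls became 118 with the assigned share as a covariate and 0 with position as a covariate, 165 with no filter, and 164 to 246 with 1 library left out. Against control, the 149 calls became 188 with DESeq2 and 65 to 143 with 1 library left out. For restricted against control parenchyma DESeq2 called 2, and leaving out libraries gave 0 to 1. DESeq2 called 2 of the genes in unlimited against restricted liver, 2 against control, 4 in restricted against control and 4 in the interaction of fat pad and liver. Leaving out libraries gave 0 to 3 calls, 1 call each time and 0 to 2 calls in these 3 liver comparisons in that order, with 3 and 2 where restricted 8 was left out, and leaving out unlimited 3 and 6 together gave 0 in the first. In fat pad the count was 0 in all alternatives. With the sample number as a replicate block, 195 of the genes were called between parenchyma and fat pad, where 193 were without it, and 239 between parenchyma and liver, where 240 were, and 0 were called in the interaction of fat pad and liver with or without it; the same number gave the highest correlation in 8 of 12 libraries for each of the first 2 pairs of tissues and in 7 of 12 for fat pad and liver. Without the block, leaving out libraries gave 185 to 195 and 234 to 241. Of 554 values of named genes under alternatives, 520 kept direction and side of the threshold, 23 lost the call and 11 gained it, and 0 changed sign. The counts of called genes here show only how the calls depend on the settings. Shares of all genes under each setting are not set beside them, so no excess is read. The cause of these shifts was not tested. Depth limits the genes with few counts most.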
